A study of Homo sapiens with 20 samples.

Results

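The 10 genes MAX, MXD1, MXD3, MXD4, MXI1, MNT, MGA, MLX, MLXIP and MYCL encode MAX and other proteins of the MYC partner network. They were taken by name, as 10 of the 19962 protein-coding genes of GENCODE release 44 on chromosomes 1 to 22 and X. The submitters did ChIP-seq, which sequences the DNA pulled down with a protein, on PC-3, an established prostate cancer epithelial cell line, with an antibody against c-Myc (MYC) and another against RNA polymerase II (POL2). Wild-type cells (WT) were set beside cells called PSD10 in which SLK, a protein kinase gene, had been knocked out (SLK-KO), with 3 MYC and 3 POL2 libraries per genotype. The labels name a single SLK-KO line, so loss of SLK and other differences of that line cannot be told apart. The series' title names SLK as a co-regulator of c-Myc, and the genotypes are compared here for the places of both proteins at the 10 genes.

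MYC binds DNA as a dimer with MAX, at the sequence CACGTG, called the E-box, and such dimers activate transcription. The MXD proteins, MXI1 and MNT also pair with MAX and occupy the same motif, but recruit the SIN3 corepressor. MGA is a large MAX partner and a scaffold of the non-canonical Polycomb complex PRC1.6. MLX is a MAX-like protein that pairs with MLXIP (MondoA), a glucose-responsive activator, and also with some MXD proteins and MNT. Accordingly MAX, MLX, MLXIP and MYCL, a MYC family member, were counted as activating partners, and MXD1, MXD3, MXD4, MXI1, MNT and MGA as repressing ones. MAX serves both sides, and so does MLX through those pairings, so the place of both among the activating genes is a convention.

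The data are lists of summits, the single base at the top of each called peak, with a score per summit. The MYC lists held 201 to 365 summits in WT and 988 to 1420 in SLK-KO, and the POL2 lists 5047 to 17126 and 15436 to 19017. The rank of a summit is its place in its own list by score, 1 being the best. WT POL2 replicate 2 had the shortest POL2 list and stood apart in most counts below. Read depth is unknown, and a missing summit means that no peak was called, not that nothing was bound. At SLK itself, POL2 summits lay 1 kb or less from an annotated transcription start (TSS) in 2 WT and 3 SLK-KO libraries, which says nothing about loss of its product. The epithelial keratin genes KRT8, KRT18 and KRT19 had such a POL2 summit in all 6 POL2 libraries, EPCAM in 1 WT and 3 SLK-KO libraries, and CDH1 in 1 WT and 0 SLK-KO libraries. Of the luminal prostate markers, KLK3 had one in 0 of 6 and TMPRSS2 in 6 of 6. The leukocyte gene PTPRC had none, the endothelial gene PECAM1 had one in 1 WT library, and the fibroblast gene COL1A1 had one in 2 WT and 2 SLK-KO libraries.

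MYC summits lay near a TSS of 4 of the 10 genes in at least 1 library, beside 9.69% of all protein-coding genes. Whether the motif lay within 100 bp of them differed. The following 30-base windows of GRCh38 are written 5′ to 3′ on the strand of the gene with CACGTG in capitals. The motif is shown first at the promoters of MXD3 and MXD1, where MYC summits lay within 28 bp of its centre. It is then shown at those of MAX, MLX, MLXIP and MXD4, where none lay within 100 bp.
MXD3, chr5:177312264-177312293, minus strand: ccccgcggcaccCACGTGcagcggctgggc
MXD1, chr2:69914273-69914302, plus strand: ccccgcagcagcCACGTGgcgcctgcccta
MAX, chr14:65102849-65102878, minus strand: tccagctccctcCACGTGtcctgtcttccc
MLX, chr17:42567038-42567067, plus strand: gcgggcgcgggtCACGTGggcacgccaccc
MLXIP, chr12:122078371-122078400, plus strand: acccgcacccacCACGTGgagccggccggg
MXD4, chr4:2262330-2262359, minus strand: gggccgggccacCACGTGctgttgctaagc

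The best-ranked MYC summit of MGA had no CACGTG within 100 bp. The 30 bases around it are shown for contrast, with nothing in capitals.
MGA, chr15:41660733-41660762, plus strand: gcgtccccggcctcacttccgcgtcgctca

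CACGTG, a palindrome that reads the same on both strands, was found within 1 kb of the canonical TSS of 7 of the 10 genes, against 29.2% of all protein-coding genes. The 7 comprised 3 of 4 activating genes (MAX, MLX and MLXIP) and 4 of 6 repressing ones (MXD1, MXD3, MXD4 and MNT). Of the copies at MAX, the copy shown above was centred 347 bp upstream of its canonical TSS. MNT had 2 copies, of which 1 lay in a coding exon. In MLX the copy was centred 48 bp upstream of the canonical TSS. MYCL, MXI1 and MGA had none in this window. A match to these letters is a description of the sequence, not a site of binding.

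MXD3, an MXD repressor gene (ENSG00000213347.11, chromosome 5, 177301461 to 177312757, minus strand), had a MYC summit near a TSS in 5 of 6 MYC libraries, the most of the 10 genes. At least 5 of 6 was reached by 0.992% of all protein-coding genes. The summits ranked 60 of 201 in WT replicate 2 and 88 of 267 in WT replicate 3. In SLK-KO they ranked 118 of 1218, 99 of 1420 and 192 of 988 in replicates 1, 2 and 3. WT replicate 1 had none, although its list was the longest of the WT lists, at 365. All 5 summits lay within 38 bp of each other, 352 to 390 bp upstream of the canonical TSS, and 2 to 28 bp from the centre of the CACGTG shown above. When every MYC list was reduced to its best 201 summits, MXD3 was still present in 2 WT and 3 SLK-KO libraries. In lists of that length 0.481% of protein-coding genes were in at least 5 of 6. The test of presence between the genotypes gave an exact permutation p = 1 at MXD3.

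MXD1, another MXD repressor gene that is known to be induced as cells differentiate (ENSG00000059728.11, chromosome 2, 69897688 to 69942945, plus strand), had a MYC summit near a TSS in 1 WT and 2 SLK-KO libraries. Presence in at least 3 of 6 libraries was reached by 2.98% of protein-coding genes. The ranks were 222 of 267 in WT replicate 3, 936 of 1218 in SLK-KO replicate 1 and 253 of 1420 in SLK-KO replicate 2. These 3 summits lay within 34 bp of each other, 805 to 839 bp upstream of the canonical TSS, and each was 17 bp from the centre of its CACGTG. They were thus outside a window of 500 bp around the TSS, and none ranked among the best 201 of its list. The genotypes overlapped, with an exact permutation p = 1.

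MGA and MAX had MYC summits in 2 and 1 of the SLK-KO libraries and in 0 of WT. At least 2 of 6 libraries held one at 5.06% of protein-coding genes. At MGA (ENSG00000174197.19, chromosome 15, 41621134 to 41773081, plus strand) they were in SLK-KO replicates 2 and 3, ranked 1307 of 1420 and 336 of 988. They lay in an intron, 320 and 343 bp downstream of the canonical TSS, and the nearest CACGTG was 920 and 897 bp away. At MAX (ENSG00000125952.21, chromosome 14, 65006174 to 65102695, minus strand) the summit was in SLK-KO replicate 3, ranked 749 of 988, 462 bp upstream of the canonical TSS. Its nearest CACGTG was centred 116 bp away. The ranks of 1307 and 749 exceed the length of every WT list, and the rank of 336 is past the end of the other two WT lists. Presence gave exact permutation p = 0.4 for MGA and p = 1 for MAX.

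MYCL, MLX, MLXIP, MXD4, MXI1 and MNT had no MYC summit near a TSS in any of the 6 libraries. For MNT, whose product is a widely expressed antagonist of MYC at shared E-boxes, the nearest MYC summit was 51900 bp from a TSS, and for MLX it was 265134 bp. Of the 8 genes that had a POL2 summit there, 4 had one of MYC, beside 17.7% of all those coding genes that carried POL2. The 10 genes were chosen for their link to MYC, so these shares and the 4 of 10 above are given as a description.

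**Figure D1:**
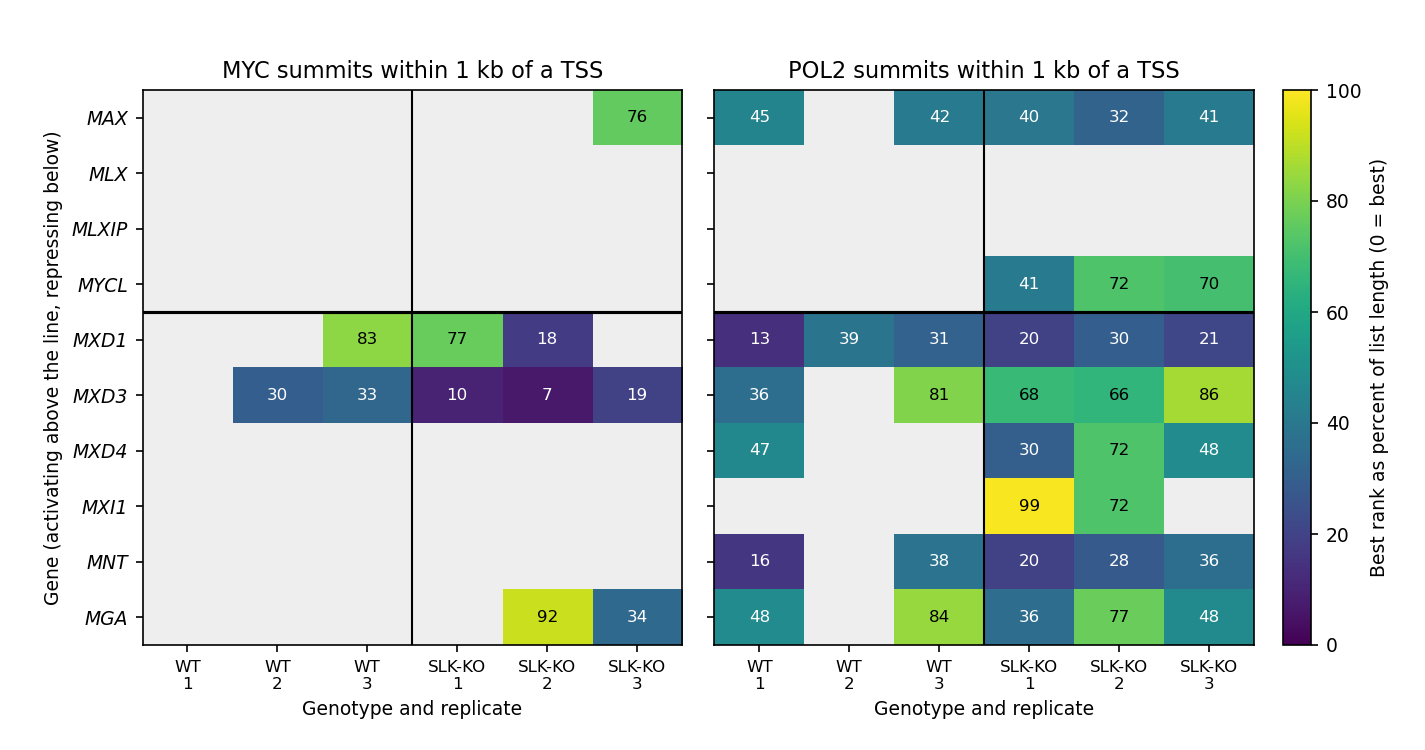
Summits within 1 kb of a TSS for each of the 10 genes (rows) in each library (columns), MYC on the left and POL2 on the right. The colour and the printed number give the best rank as a percent of the list length, 0 being the best, and grey means no summit. MXD3 is filled in 5 of 6 MYC libraries, MXD1 in 6 of 6 POL2 libraries, and MYCL has POL2 summits in the 3 SLK-KO libraries only.

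CACGTG lay within 100 bp of 8 of the 11 MYC summits of these genes, 5 at MXD3 and 3 at MXD1. Of all MYC summits within 1 kb of a coding TSS it was 32.7%, with 42.3% in WT and 30.4% in SLK-KO. The 11 summits stand for 4 promoters only, and those at 1 promoter share their sequence, so the count rests on the promoters of MXD3 and MXD1. Within 250 bp the count was 9 of 11, with the summit of MAX added. For POL2 summits of the 10 genes the count was 4 of 45, all at MAX, beside 4.25% of all POL2 summits near coding TSSs. With CACGCG on either strand allowed as well, and also CATGTG, the count at MYC summits remained 8 of 11, while the share over all MYC summits was 66.9%. The G and C content of the 201 bp around the 11 summits was 62.2% to 72.6%, beside a median of 69.2% over all 3527 MYC summits near coding TSSs.

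The MYC and POL2 summits of a promoter did not coincide. In the POL2 list of the same genotype and number, the nearest summit was 776 to 837 bp from the MYC summits of MXD1, because POL2 sat at the TSS and MYC upstream. At MGA the distance was 238 and 220 bp, and at MAX 485 bp. At MXD3 it was 558 bp in WT replicate 3 and 404, 479 and 260 bp in SLK-KO replicates 1, 2 and 3. In WT replicate 2 it was 8650 bp, since the short POL2 list of that number held no summit near an MXD3 TSS.

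**Figure D2:**
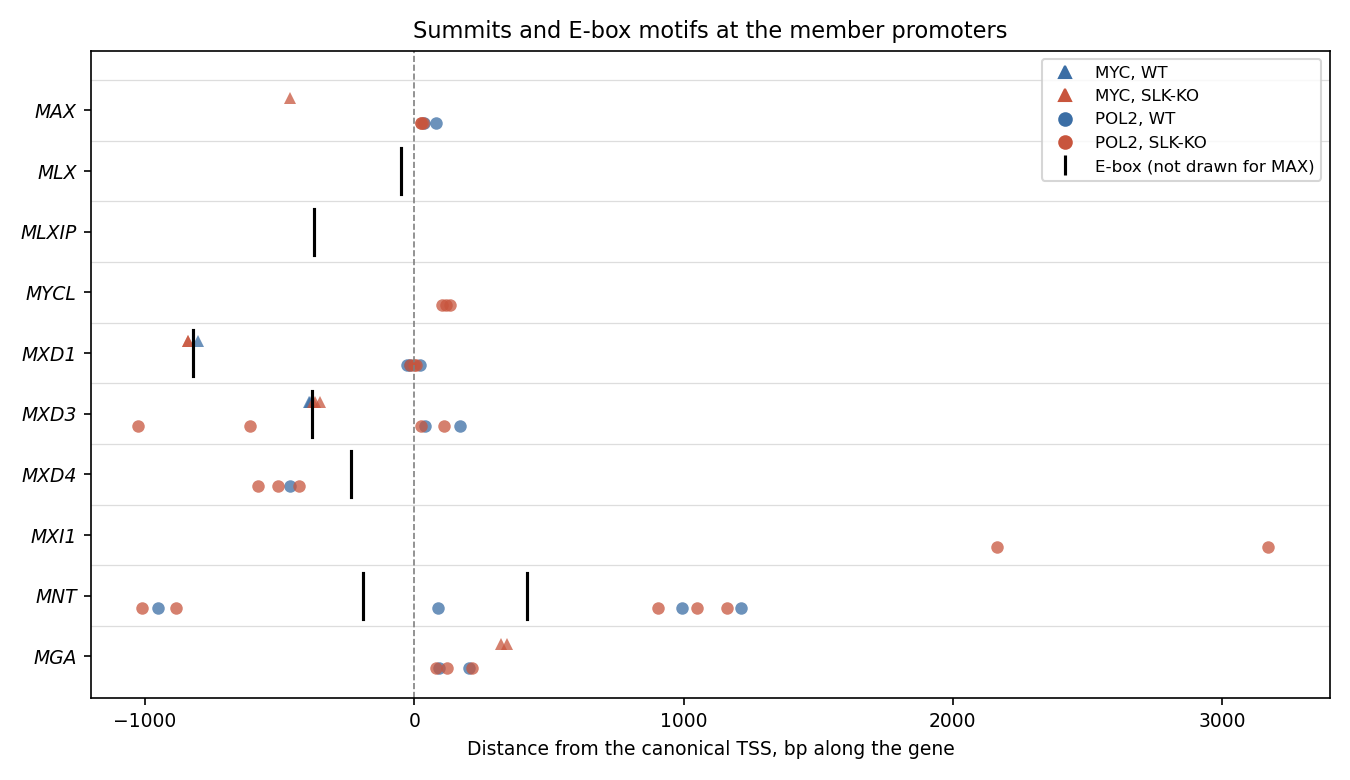
Distance of MYC summits (triangles) and POL2 summits (circles) from the canonical TSS of each gene, in bp along the gene, WT in blue and SLK-KO in red. Vertical bars mark CACGTG, which is not drawn for MAX, and summits near internal start sites past 3400 bp are not drawn. MYC summits lie within 28 bp of the motif centre at MXD1 and MXD3. POL2 summits cluster at the TSS in MAX, MXD1, MYCL and MGA, and those of MXI1 and most of MNT lie downstream of the TSS.

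POL2 summits lay near a TSS of 8 of the 10 genes in at least 1 library, beside 53.9% of all protein-coding genes. MXD1 alone had one in 6 of 6 libraries, which 18.1% of protein-coding genes had. Its summits lay between 29 bp upstream and 22 bp downstream of the canonical TSS. They ranked 2279, 1949 and 3106 in WT replicates 1, 2 and 3 and 3710, 4618 and 3443 in SLK-KO. All fell within the best 5047, the length of the shortest list, so MXD1 was the single gene of the 10 whose rank could be compared in lists of equal length. Every SLK-KO rank number was above every WT rank number, with a difference of mean log2 rank of 0.70 ± 0.23 (SE, n = 3 each). The exact two-sided permutation p was 0.1, the smallest that 3 against 3 libraries allow, and 0.324 after Benjamini-Hochberg adjustment over 2616 genes. Of those genes 15.3% had every SLK-KO rank number above every WT one and 15.5% the reverse. The split at MXD1 was therefore a common one in these lists.

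MAX, MNT, MGA and MXD3 had POL2 summits near a TSS in WT replicates 1 and 3 and in all SLK-KO libraries, a pattern of 2 WT and 3 SLK-KO libraries shared by 15.4% of protein-coding genes. At MAX the ranks were 7702 and 4119 in WT and 7533, 4892 and 6739 in SLK-KO, and the summits lay 23 to 79 bp downstream of the canonical TSS. The MAX ranks of the genotypes overlapped. MGA ranked 8264 and 8380 in WT and 6810, 11881 and 7767 in SLK-KO, at 82 to 213 bp downstream. Best ranks at MNT were 2680 and 3784 in WT and 3710, 4346 and 5865 in SLK-KO. These MNT summits lay in an intron, 905 to 1212 bp downstream of the canonical TSS, where the nearest annotated start is that of an internal MNT transcript. For MXD3 the best ranks were 6188 and 8059 in WT and 12844, 10173 and 14094 in SLK-KO. Ranks of lists of unequal length show no change, so none was read from these.

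MYCL (ENSG00000116990.12, chromosome 1, 39895428 to 39902256, minus strand) was the single gene of the 10 with a POL2 summit in 3 SLK-KO and 0 WT libraries. The summits lay 103 to 131 bp downstream of its canonical TSS, within 28 bp of each other, and ranked 7803 of 19017, 11174 of 15436 and 11475 of 16298. Their scores were 10.5, 4.53 and 5.09. The nearest POL2 summit in WT was 52941, 138168 and 18503 bp from a MYCL TSS in replicates 1, 2 and 3. WT replicate 1 held 17126 summits, more than 2 of the SLK-KO lists, and had none at MYCL. A cause of the split was not tested. This split was seen at 1.55% of protein-coding genes, and at 0.01% in the reverse direction. The exact permutation p was 0.1, the smallest possible, and 1 after Benjamini-Hochberg adjustment over 10764 genes. With a score of at least 5 the gene was in 2 SLK-KO libraries, and in lists of the best 5047 in 0 libraries.

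The repressor genes MXD4 and MXI1 also had POL2 summits in fewer WT than SLK-KO libraries. So had MAX, MNT, MGA, MXD3 and MYCL above, which leaves MXD1 as the exception among the genes with POL2. MXD4 (ENSG00000123933.17, chromosome 4, 2247432 to 2262109, minus strand) had one in 1 WT and 3 SLK-KO libraries, 427 to 582 bp upstream of its TSS (exact permutation p = 0.4). Its ranks were 7982 in WT replicate 1 and 5749, 11174 and 7882 in SLK-KO. Within 500 bp of a TSS, MXD4 had a summit in 1 WT and 1 SLK-KO library. MXI1 (ENSG00000119950.21, chromosome 10, 110207605 to 110287365, plus strand) had one in 0 WT and 2 SLK-KO libraries (exact permutation p = 0.4). These ranked 18838 of 19017 in SLK-KO replicate 1, near the end of the list, and 11174 of 15436 in replicate 2. They lay 3171 and 2164 bp downstream of the canonical TSS, in an intron near the start of an internal MXI1 transcript. At least 2 of 6 POL2 libraries held one at 49.8% of protein-coding genes. In SLK-KO replicate 2 the summits of MYCL, MXD4 and MXI1 had the same score of 4.53 and so the same rank. For MXI1 no summit remained when only the canonical TSS was used, or with a score of at least 5.

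MLX and MLXIP, the Mondo arm of the network, had no POL2 summit near a TSS in any library. The nearest to a TSS of MLX (ENSG00000108788.12, chromosome 17, 42567072 to 42573239) was 4868 bp away, and 43.0% of protein-coding genes had none closer than that. For MLXIP (ENSG00000175727.15, chromosome 12, 122078756 to 122147344) it was 55287 bp away, a distance that 25.4% of protein-coding genes reached or exceeded. The MLXIP values of the 6 libraries lay between 55287 and 55508 bp, which is a single site outside the gene. Both promoters carry CACGTG, as shown above.

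Inside the genes and more than 1 kb from each of their TSSs, POL2 summits were found at MXD3 in 6 of 6 libraries, at MGA in 2 and at MXI1 in 1 SLK-KO library. A summit in the gene body was found at 21.4% of protein-coding genes in at least 1 library. Of the 12 such summits of the 10 genes, 9 were in MXD3, and 7 of the 12 lay within 100 bp of a coding TSS of another gene. The annotated span of MXD3 contains PRELID1 and the start of RAB24, which face away from each other. The best gene-body POL2 summits of MXD3 lay 8000 to 8263 bp downstream of its canonical TSS and 7 to 43 bp from a TSS of PRELID1 or RAB24. They ranked 4811, 4990 and 3367 in WT and 3013, 4223 and 4873 in SLK-KO. In every library this summit ranked better than the one at the MXD3 promoter, where WT replicate 2 had none. The MYC summit in an MXD3 gene body, in SLK-KO replicate 1 at rank 933, was the only one in a gene body of the 10 genes, where 1.65% of protein-coding genes had one, and lay 3 bp from a TSS of RAB24 and 24 bp from the centre of a CACGTG. These summits are nearer to the start of another gene than to any start of MXD3.

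**Figure D3:**
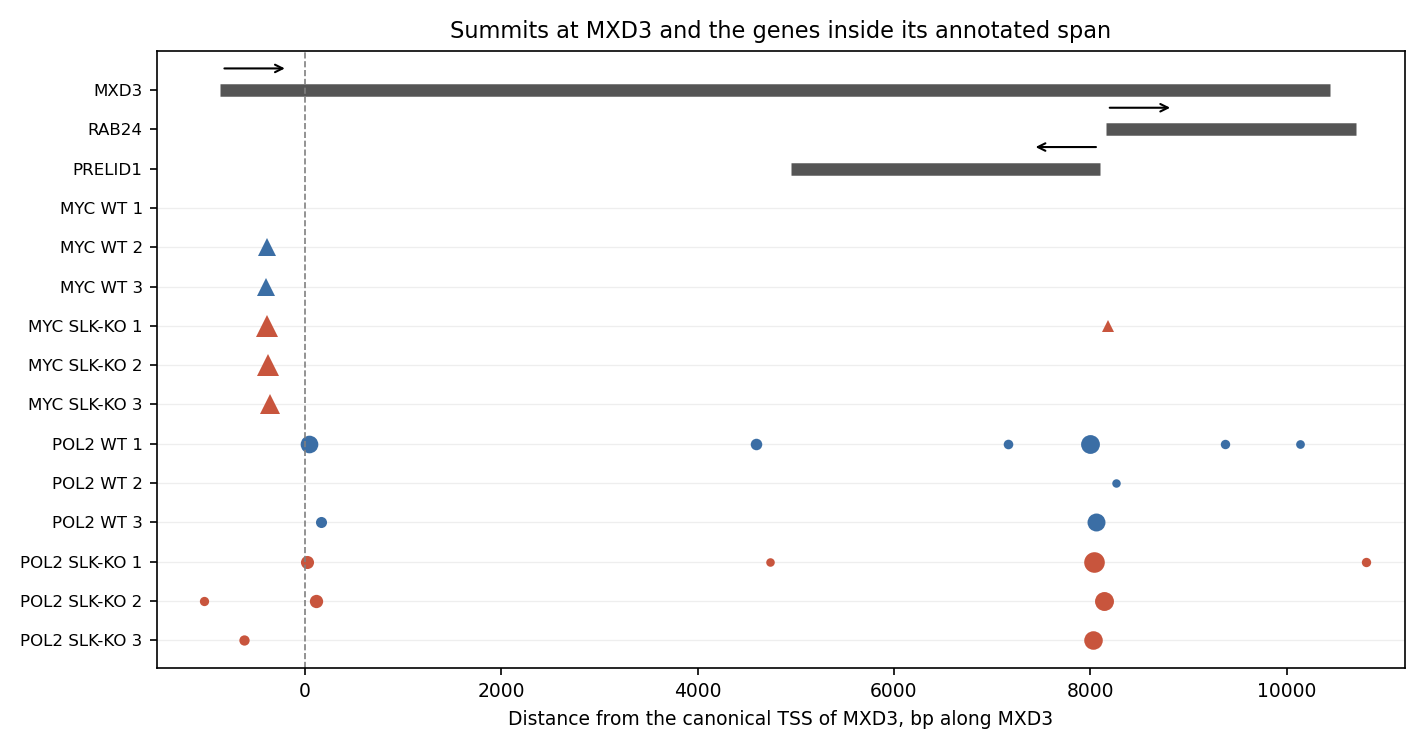
Map of MXD3 with PRELID1 and RAB24 (grey bars, arrows give the direction of transcription) and the summits of each library, in bp from the canonical TSS of MXD3. Triangles are MYC and circles POL2, WT in blue and SLK-KO in red, and a larger symbol means a better rank within its list. MYC summits stack at 352 to 390 bp upstream of the TSS, and the best-ranked POL2 summits lie at 8000 to 8263 bp, at the starts of PRELID1 and RAB24.

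In 5 of 6 MYC libraries and 6 of 6 POL2 libraries, the share of genes with a summit near a TSS was larger among the repressing partners than among the activating ones. For MYC the activating share was 0% in every WT library and averaged 8.33% ± 14.4 over SLK-KO (SD, n = 3), from MAX in a single library. Of the 6 repressing genes the shares were 16.7% ± 16.7 in WT and 38.9% ± 9.62 in SLK-KO. Among all protein-coding genes the mean MYC share was 1.42% for WT libraries and 5.52% for SLK-KO libraries. With shares this low, finding none of 4 activating genes does not set them apart from other genes. The activating share minus the repressing share was -23.6 ± 18.6 percentage points (SD, n = 6), below 0 in 5 of 6 libraries and 0 in WT replicate 1. Here and for POL2 below, the SD of 6 libraries pools both genotypes, and the same genes recur in every library. The MYC difference was -15.3 points with a window of 500 bp, and -13.9 points with lists of equal length, where MXD3 was the only gene left. For POL2 the activating shares were 16.7% ± 14.4 in WT and 50% ± 0 in SLK-KO, and the repressing shares 55.6% ± 34.7 and 94.4% ± 9.62. That difference was -41.7 ± 14.9 points (SD, n = 6), below 0 in 6 of 6 libraries. It was -23.6 points with a score of at least 5 and -19.4 points with lists of equal length. With a window of 500 bp it was -30.6 points, and with only the canonical TSS, chosen after seeing the data, -33.3 points. Annotated TSSs ranged from 3 at MYCL to 37 at MXI1, so the genes differed in how much sequence counted as near a TSS. Over all protein-coding genes the WT POL2 share was 34.0% ± 14.2 and the SLK-KO POL2 share 47.2% ± 1.92 (SD, n = 3). The latter was close to the activating POL2 share of 50% in SLK-KO. The classes hold 4 and 6 genes chosen with earlier results known, so no test was made of either difference. Of the activating genes, MLX and MLXIP lacked POL2 summits in every library, MYCL in the WT libraries and MAX in WT replicate 2.

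**Figure D4:**
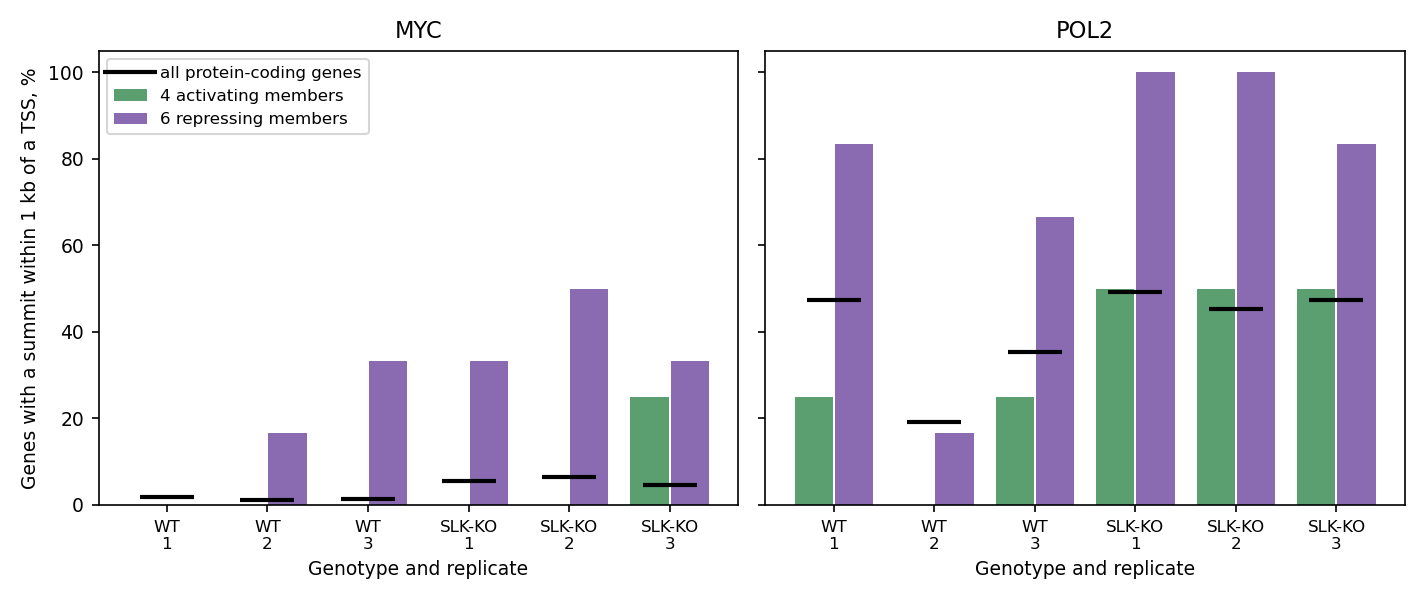
Percent of the 4 activating genes (green bars) and of the 6 repressing genes (purple bars) with a summit within 1 kb of a TSS in each library, MYC on the left and POL2 on the right. Black dashes give the percent of all protein-coding genes. In the POL2 libraries the purple bars stand above the green in all 6, and WT replicate 2 has 1 of 10 genes.

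Across genotypes, MYC summits were near a TSS of 0, 1 and 2 of the 10 genes in WT replicates 1, 2 and 3 and of 2, 3 and 3 in SLK-KO. The means were 1 ± 1 and 2.67 ± 0.577 genes (SD, n = 3). Over all protein-coding genes the shares were 1.83%, 1.04% and 1.4% in WT and 5.5%, 6.4% and 4.67% in SLK-KO. WT replicate 3 and SLK-KO replicate 1 each had 2 genes, so the groups met. With lists of 201 summits the difference between the genotypes fell from 1.67 to 0.333 genes, as MXD3 alone remained. None of the 10 genes carried MYC in 3 of 3 SLK-KO and 0 of 3 WT libraries, a split seen at 0.877% of protein-coding genes. By the exact permutation test of presence, 0 of 1934 genes passed after adjustment, and 0 had an unadjusted p under 0.05, which the design cannot reach.

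For POL2 the numbers were 6, 1 and 5 of 10 genes in WT and 8, 8 and 7 in SLK-KO. The means were 4 ± 2.65 and 7.67 ± 0.577 genes (SD, n = 3), and the groups did not overlap. All protein-coding genes gave 47.5%, 19.1% and 35.4% in WT and 49.1%, 45.3% and 47.3% in SLK-KO, and there the groups overlapped, since WT replicate 1 lay above SLK-KO replicate 2. The difference of 3.67 genes was 2.17 without WT replicate 2 and 0 in lists of the best 5047 summits. In those lists MXD1, MNT and MAX were the members left, with MNT in 2 and MAX in 1 library of each genotype. A longer list and more POL2 at these promoters cannot be told apart from summits alone.

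Among the 14 genes with MYC summits near a TSS in the same 5 of 6 libraries as MXD3, those with the closest ranks were CNIH3, SRSF1 and ENSG00000266086. The mean absolute difference in log2 rank over 5 libraries was 0.68 for CNIH3 and 0.69 for the pair SRSF1 and ENSG00000266086, which overlap and share their summits. CNIH3 ranked 43 and 45 in WT and 105, 74 and 75 in SLK-KO. These genes are named for their ranks alone.

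The products of the 10 genes act with other proteins, and 33 genes of that wider network were counted in the same way. A MYC summit near a TSS was in at least 1 library at 4 of the 33, where 9.69% of all protein-coding genes had one, and in at least 3 libraries at 3, beside 2.98%. A POL2 summit was in at least 1 library at 27, beside 53.9%, and in all 6 at 5, beside 18.1%, and the same shares of all genes stand behind the counts of each list that follow. MYC itself had MYC summits in 3 SLK-KO and 0 WT libraries, at ranks 47, 117 and 79, and POL2 summits in all 6. A split of 3 SLK-KO and 0 WT MYC libraries was seen at 0.877% of protein-coding genes in the full lists. The ranks at MYC fall within the best 201 of each list, and in lists of that length 7 protein-coding genes had the split. MYCN and MLXIPL (ChREBP) had neither MYC nor POL2 summits. Of the 8 corepressor genes, which include SIN3A, SIN3B, HDAC1 and HDAC2, 8 had POL2 in at least 1 library. SIN3A had POL2 summits in 3 SLK-KO and 0 WT libraries, a split seen at 1.55% of protein-coding genes. SIN3A falls outside the rule for named genes and was picked out after its values were seen. RUVBL1, an ATPase of chromatin complexes that MYC recruits, was the one of 8 coactivator genes with MYC at a TSS, found in 3 SLK-KO and 0 WT libraries at ranks 557, 1095 and 556, past the end of each WT list.

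Of 7 PRC1.6 genes, whose products work with MGA, 5 had POL2 in at least 1 library and 1, CBX3, had MYC, in all 6. A MYC summit in all 6 was found at 0.496% of protein-coding genes. CBX3 encodes a heterochromatin protein, and its MYC summits ranked 121, 180 and 129 in WT and 44, 55 and 19 in SLK-KO. They lay 146 to 310 bp from a CBX3 TSS and 624 to 788 bp from one of HNRNPA2B1, so the pair of genes cannot be told apart by this site. The 5 genes of MYC turnover, which include FBXW7 and SKP2, had no MYC summit, and all had POL2 in at least 1 library. Of the MondoA targets TXNIP and ARRDC4, 1 had POL2 summits, in 6 of 6 libraries, and neither had MYC.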

How the data were processed

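Deposited summit lists of 6 MYC and 6 POL2 libraries were used, and the 6 IgG and 2 Input libraries were not analysed here. Per the submitters' processing notes, the authors used nf-core/chipseq 2.1.0 with Trim Galore 0.6.7, cutadapt 3.4, BWA 0.7.18-r1243, Picard 3.2.0 and MACS3 3.0.1 on GRCh38.p14. The caller's options and control library are not given in the sources used here. Each list held the summits of 1 library, with the authors' deposited score read as −log10 of the q-value, since the lowest was 1.30, which is −log10 of 0.05. No read counts were used, so depth is unknown.

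Summits within 1 kb of a TSS of any GENCODE 44 transcript of a gene counted as near it, and others between the gene's ends as gene body. Ranks were compared between lists only after reducing each to the shortest. Presence and log2 rank were compared between 3 and 3 libraries by two-sided exact permutation tests over all genes, with Benjamini-Hochberg adjustment, and the smallest p possible is 0.1. Python 3.11.15, numpy 2.4.6, scipy 1.17.1 and matplotlib 3.10.9 were used. The count of genes split by genotype and the rank comparison were run on simulated data with seeded genes. The permutation test of presence was not checked in that way. The design text calls the replicates biological, and no batch label was given. All 10 genes are named. Genes of the wider lists are given values with MYC summits in at least 3 libraries, and the genes most like MXD3 by MYC presence and rank. Some genes of the marker and wider lists and one sequence are not reported here. The 10 genes and all lists were chosen with earlier results of these data known. Alternatives covered the TSS window, transcripts, score, list length, motif and left-out libraries.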

Additional observations from a re-analysis of the deposited data

How the results depend on the processing

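Of 106 alternatives computed for 10 results, 93 were labelled the same, 13 moved and 0 reversed. A replicate block takes differences between libraries of the same number. Its mean equals the difference of the genotype means, so its label of same was fixed in advance. Same meant within the SD for a mean and within 1.5 times for a count of genes. For the rank difference at MXD1 it meant the same sign only. For the motif share it meant within a binomial interval that takes the summits as independent, which those of 1 promoter are not. Only a difference could be labelled reversed. With lists of equal length, CACGTG lay within 100 bp of 100% of the MYC summits left at the 10 genes (5 of 5, all at MXD3), beside 72.7%. At that length the SLK-KO minus WT difference was 0.333 genes for MYC, beside 1.67, and 0 for POL2, beside 3.67. The activating minus repressing share for POL2 was -19.4 points with equal lists and -23.6 points with a score of at least 5, beside -41.7. Protein-coding genes with MYC in 3 of 3 SLK-KO and 0 of 3 WT lists numbered 175, and 98 with a score of at least 5, 7 with equal lists, and 196 to 358 with a library left out (279 without SLK-KO replicate 1 and 358 without SLK-KO replicate 3). For POL2 they numbered 309, and 202 with equal lists and 311 to 1663 with a library left out (1663 without WT replicate 1 and 474 without SLK-KO replicate 2). Genes with non-overlapping POL2 ranks numbered 807, and 1050 to 1351 with a library left out, with 1351 without WT replicate 2. Leaving out a library relaxes these counts, as fewer libraries must fit the pattern.

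The deviations of same-numbered libraries had correlations of -0.0206 to 0.0525 for MYC and -0.0157 to 0.0525 for POL2. Of 6 libraries each, 3 for MYC and 2 for POL2 correlated best with the library of their own number. With 3 libraries per genotype this cannot decide whether the numbers pair the samples. With a replicate block the differences were 1.67 genes for MYC and 3.67 for POL2, unchanged by arithmetic, so this is no check of them. The log2 rank difference at MXD1 was likewise bound to stay at 0.70. Its exact permutation p with the replicate block was 0.25, the smallest that sign flips of 3 pairs can give. Without each library in turn the log2 rank difference was 0.55 to 0.89. With only the canonical TSS, an alternative chosen after seeing the data, MXI1 had 0 POL2 summits and MNT had them in 2 libraries of each genotype. Summit lists without counts limit every result here to presence, place and order.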

Other observations

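Summits were listed up to 5000 bp beyond each gene's ends, and POL2 summits there marked the genes next to 3 of the 10. Upstream of MXD1, a summit within 58 bp of a TSS of SNRNP27, which encodes a spliceosome protein, was in 5 of 6 libraries, at ranks 4336 and 2294 in WT replicates 1 and 2 and 16419, 7380 and 11652 in SLK-KO. Beyond the 3′ end of MGA, a summit within 188 bp of a TSS of MAPKBP1 was in 5 of 6 libraries, all but WT replicate 2. On both sides of MLX, which had none of its own, POL2 summits lay at PSMC3IP, a meiotic recombination factor gene, within 212 bp of its TSS in 5 libraries. On the other side, a summit 4868 bp from an MLX TSS in SLK-KO replicate 3 was 53 bp from a TSS of COASY, a coenzyme A synthesis gene. WT replicate 1 also had a summit on that side, 5017 bp from an MLX TSS and so just past the listing limit.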
